A study of Mus musculus with 12 samples.

Results

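The REV-ERB and ROR receptors are nuclear receptors that bind the same DNA sequence, the ROR response element (RORE), and act on it in opposite directions. REV-ERBα (*Nr1d1*) and REV-ERBβ (*Nr1d2*) repress genes through the NCoR and HDAC3 corepressor complex and bind heme as a ligand, whereas RORα (*Rora*) and its relatives activate the same genes. Within the circadian clock the *Nr1d1* and *Nr1d2* genes are targets of the CLK:BMAL1 activator, and the REV-ERB proteins in turn repress *Arntl*, the gene of BMAL1. In the liver the REV-ERBs are also known for their effects on lipid and bile acid metabolism. The genes were taken by symbol, and 3 genes (*Nr1d1*, *Nr1d2* and *Rora*) were found among the 20069 genes of the expression table.

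Poly(A) RNA was sequenced in 12 liver samples of male wild-type C57BL/6 mice aged 3-6 months. The mice were kept with 12 hr of light and 12 hr of darkness per day for at least 2 weeks, and no genotype or drug treatment was compared. Livers were taken every 4 hr from ZT2 to ZT22 (ZT0 is lights on, ZT12 is lights off), and each of the 6 time points has 2 samples, named series 1 and series 2. The mRNA level of a gene is its mean coverage over the exons in reads per base pair (rpbp), on a scale of 40000000 uniquely mapped sequences per sample. The question was when in the day the repressors and the activators of the shared element are expressed, and how far their levels part.

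Tissue markers were checked first. All 6 hepatocyte markers (among them *Alb*) were expressed, and none of the 7 lymphocyte markers passed the minimum of 8 rpbp. The summed hepatocyte markers lay between 79301 and 84026 rpbp at ZT2 and between 120503 and 163705 rpbp at the 5 other time points. This sum was carried by *Alb*, with means of 51786 rpbp at ZT2 and 96080 to 114473 rpbp elsewhere. *Ttr*, *Tat* and *Cps1* were also lowest at ZT2, so that 4 of the 6 markers were, whereas *Serpina1a* was highest at ZT2 (3880 rpbp, against 2587 to 3598) and *Apoa2* was lowest at ZT22. Kupffer cell markers (5 of 6 expressed) summed to 571 and 572 rpbp at ZT2, against 281 to 459 rpbp at the other time points. Cholangiocyte markers (2 of 5 expressed) summed to 129 to 229 rpbp at ZT2, against 63.7 to 144 rpbp elsewhere, where the highest samples of ZT14 and ZT22 overlapped with ZT2. Endothelial markers (6 of 6 expressed; 191 to 230 rpbp) and stellate cell markers (4 of 6 expressed; 232 to 303 rpbp) had similar sums at ZT2 and elsewhere. The ZT2 samples thus stand apart in the *Alb*-led and Kupffer cell sums, and their part in the results was not tested other than by fits without them. In whole liver, fewer cells of a type and less RNA per cell cannot be told apart.

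The DNA around the annotated 5′ end of each receptor gene was searched for the letters of clock elements. The sequences are from the mouse genome NCBIM37 (mm9), and distances are counted from the 5′ end of the gene in the GENCODE annotation. An E-box (CACGTG, which reads the same on both strands) is the element bound by CLK:BMAL1, and a D-box (TTATGTAA or its reverse complement TTACATAA) is the element bound by DBP, TEF, HLF and NFIL3. *Nr1d1* lies at chr11:98629246-98636647 on the minus strand, and *Nr1d2* lies at chr14:19036568-19071641, also on the minus strand. *Rora* lies at chr9:68501593-69236053 on the plus strand. The 2 stretches of intron printed here, at chr11:98635163-98635410 and chr14:19071029-19071201, are shown because they hold most of the matches of the 2 repressor genes. Both are written 5′ to 3′ on the gene's strand, with E-boxes and D-boxes in capitals.
Nr1d1 intron: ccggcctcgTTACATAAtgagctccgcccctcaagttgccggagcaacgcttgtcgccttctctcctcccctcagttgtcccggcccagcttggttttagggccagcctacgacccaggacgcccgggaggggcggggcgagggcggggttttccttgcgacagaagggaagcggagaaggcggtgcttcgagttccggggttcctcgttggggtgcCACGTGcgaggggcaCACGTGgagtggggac
Nr1d2 intron: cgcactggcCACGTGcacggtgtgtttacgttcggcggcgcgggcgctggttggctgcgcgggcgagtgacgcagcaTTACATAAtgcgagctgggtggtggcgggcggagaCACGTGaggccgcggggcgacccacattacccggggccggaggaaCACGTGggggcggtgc

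Within 2000 bases on either side of its 5′ end, *Nr1d1* held 4 E-boxes, 1 upstream at −367 and 3 in the intron at 1174, 1454 and 1469. Among 22380 protein-coding genes, 0.782% held 4 or more. *Nr1d2* held 3 E-boxes, all in the intron (449, 552 and 597), and 3.41% of genes held 3 or more. Each of the 2 genes also held 1 D-box in the same stretch of intron, at 1246 in *Nr1d1* and at 517 in *Nr1d2*, and 14.9% of genes held at least 1. *Rora* held no match to either letter string in this window, and 42.3% of genes held at least 1 E-box. The nuclear receptor half-site AGGTCA, searched on both strands, occurred 3 times in *Nr1d1*, 4 times in *Nr1d2* and 0 times in *Rora*, and 90% of genes held at least 1. These are matches of letters and were not tested for binding. Elements outside the window, or near other starts of a gene, were not searched. The remaining 2 E-boxes of *Nr1d1* are shown here with 9 bases on each side, at chr11:98637000-98637023 and chr11:98635459-98635482.
Nr1d1 upstream E-box: ttctccaatCACGTGaagctctca
Nr1d1 first intronic E-box: agccgggccCACGTGctgcatttg

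**Figure D1:**
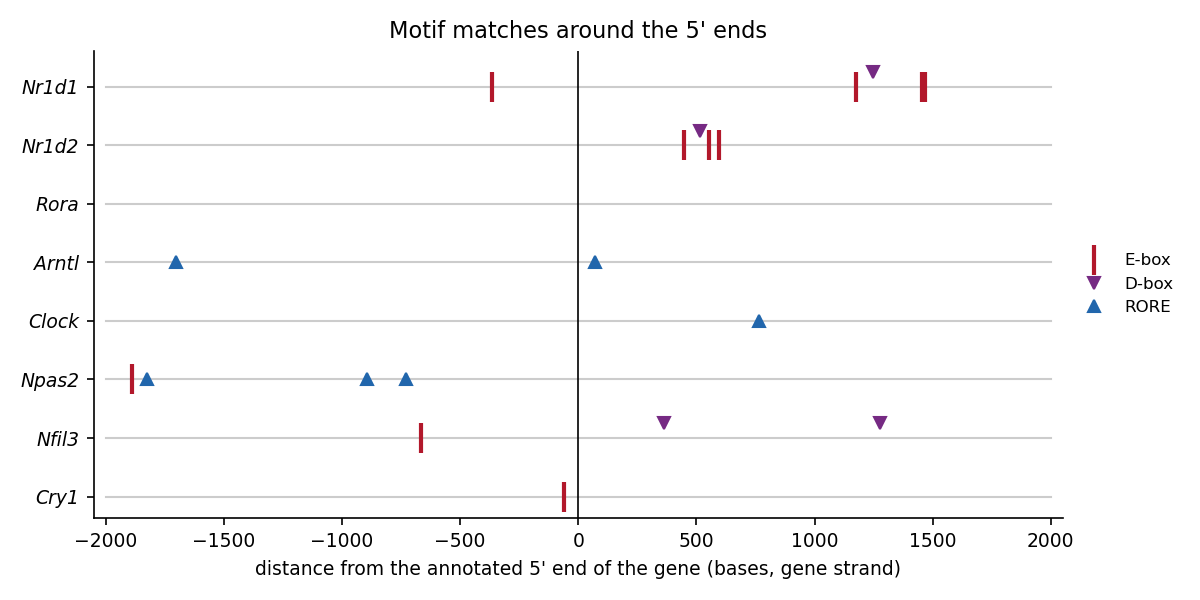
Positions of E-box (vertical bars), D-box (downward triangles, drawn above the line) and RORE matches (upward triangles) within 2000 bases of the annotated 5′ end of each gene, in bases on the gene's strand, where negative values lie upstream. The matches of *Nr1d1* and *Nr1d2* are E-boxes and a D-box, *Rora* has none, and ROREs appear in *Arntl*, *Clock* and *Npas2*.

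*Nr1d1* mRNA in series 1 was at 46.0 rpbp at ZT2, 142 at ZT6, 20.6 at ZT10, 3.80 at ZT14, 4.08 at ZT18 and 10.52 at ZT22. In series 2 it was at 42.5, 108, 23.4, 6.60, 3.84 and 14.5 rpbp at the same times. Both series were highest at ZT6, and the values of ZT6 overlapped with those of no other time point. The mean was 125 ± 23.6 rpbp (SD, n = 2) at ZT6 and 3.96 ± 0.170 rpbp at ZT18, a ratio of 31.6. The rise and the fall were unequal, since *Nr1d1* had risen by 3.08-fold and 2.55-fold in the 2 series from ZT2 to ZT6 and then dropped by 6.87-fold and 4.64-fold from ZT6 to ZT10. A further drop of 5.43-fold and 3.54-fold followed from ZT10 to ZT14. The values of ZT22 were 2.58-fold and 3.78-fold above those of ZT18, a contrast that did not pass (limma, adjusted p = 0.0521, 0.127% of genes called).

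Rhythms were scored by F24, the share of the variance of the 12 values that lies in a 24 hr wave, and a gene was called rhythmic at a permutation p below 0.05, an F24 above 0.45 and an amplitude (highest over lowest value) above 1.5. By these criteria 1948 of 10198 expressed genes (19.1%) were rhythmic, and 7.89% were strongly so (F24 above 0.6 and a higher limit on the amplitude). An adjusted permutation p below 0.05 was reached by 5.62% of genes. *Nr1d1* and *Nr1d2* were strongly rhythmic and *Rora* was not called. *Nr1d1* was rhythmic with an F24 of 0.660, a peak at 5.33 hr and an amplitude of 37.3, whose lowest value (3.80 rpbp) was under the minimum. Its permutation p of 0.0001 is the smallest that 10000 permutations can give (adjusted p = 0.0146 by Benjamini-Hochberg over all expressed genes). The phase was 5.36 hr in series 1 and 5.30 hr in series 2. A further 0.234 of the variance lay in a 12 hr wave, and F24 rose to 0.952 when the values were taken as log2(rpbp + 1), a scale on which 19.3% of genes were called. In a limma cosine fit on that scale, which called 9.22% of genes at an adjusted p below 0.05, the peak-to-trough difference was 4.50 log2 units (SE 0.298, 95% interval 3.85 to 5.15, adjusted p = 2.79e-05).

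*Nr1d2* mRNA in series 1 was at 26.0 rpbp at ZT2, 95.6 at ZT6, 78.8 at ZT10, 36.5 at ZT14, 15.04 at ZT18 and 13.4 at ZT22. In series 2 it was at 33.3, 103, 83.1, 45.5, 16.04 and 19.2 rpbp. The highest samples were again those of ZT6, but the level remained high at ZT10 and was lowest at ZT18 and ZT22, whose values overlapped. From ZT6 to ZT10 *Nr1d2* was 1.21-fold and 1.24-fold lower in the 2 series, and from ZT10 to ZT14 it was 2.16-fold and 1.83-fold lower. *Nr1d2* was rhythmic with an F24 of 0.885, a peak at 8.05 hr and an amplitude of 7.69 (permutation p = 0.0003, adjusted p = 0.0194). The phase was 8.09 hr in series 1 and 8.02 hr in series 2. The limma cosine fit gave a peak-to-trough difference of 2.82 log2 units (SE 0.180, 95% interval 2.42 to 3.21, adjusted p = 2.79e-05). With the 6 values of 1 series alone (3.62% of genes called in series 2 and 2.85% in series 1), the exact permutation p of *Nr1d2* was 0.05 in series 1 and 0.0667 in series 2, where the smallest possible is 0.0167. Its F24 was 0.884 and 0.901 and its amplitude 7.11 and 6.44 in these series.

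*Rora* mRNA in series 1 was at 16.2 rpbp at ZT2, 20.0 at ZT6, 16.4 at ZT10, 20.0 at ZT14, 19.5 at ZT18 and 23.6 at ZT22. In series 2 it was at 13.2, 20.2, 18.3, 20.0, 22.4 and 24.8 rpbp. The values of ZT2 were the lowest and those of ZT22 the highest in both series, and all others lay between them. *Rora* was not called rhythmic, with an F24 of 0.290 (permutation p = 0.214, adjusted p = 0.402) and an amplitude of 1.88. Its cosine fit gave a peak-to-trough difference of 0.33 log2 units with an interval of 0 to 0.70 (adjusted p = 0.373), and the phase of the 2 series differed by 2.12 hr. The SD over the 12 samples was 0.166 of the mean for *Rora*, against 0.714 for *Nr1d2* and 1.26 for *Nr1d1*.

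A limma test of any difference among the 6 time points called 20.4% of genes at an adjusted p below 0.05. It called *Nr1d1* (adjusted p = 2.19e-05), *Nr1d2* (9.38e-05) and also *Rora* (0.0265), for which the highest and lowest time-point means lay 0.69 log2 units apart. Of the 5 pairs of time points that passed in *Rora*, 4 set ZT2 against another time point, and the largest difference was that of ZT22 over ZT2 (0.69, SE 0.118, adjusted p = 0.0236, a contrast with 2.49% of genes called). The pair of ZT22 and ZT10 differed by 0.46 log2 units (adjusted p = 0.0455, 7.91% of genes called). Without the ZT2 samples the range of *Rora* was 0.46 log2 units with an adjusted p of 0.139, so the call was lost. The cosine fit of *Rora* without ZT2 gave 0.39 log2 units with a peak at 22.7 hr (unadjusted p = 0.00866, adjusted p = 0.0829), against 18.2 hr with all samples, and did not pass either. The call among time points was also lost without either ZT6 sample, either ZT22 sample or the ZT2 sample of series 2 (adjusted p between 0.0507 and 0.0916). *Nr1d1* and *Nr1d2* kept their calls without ZT2, with cosine differences of 4.88 and 2.81 log2 units.

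**Figure D2:**
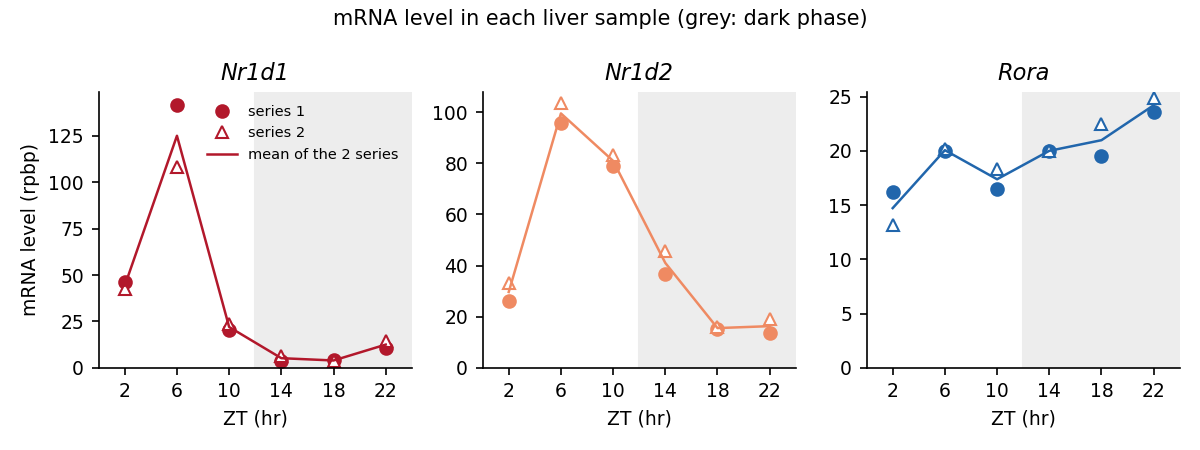
mRNA level in rpbp against ZT in hr for *Nr1d1*, *Nr1d2* and *Rora*, with filled circles for series 1, open triangles for series 2, a line through the mean of the 2 samples and the dark phase in grey; the vertical axes differ. *Nr1d1* and *Nr1d2* were highest at ZT6, and *Rora* stayed between 13.2 and 24.8 rpbp.

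The order of the levels was compared step by step with limma contrasts, each adjusted over all genes. For *Nr1d1* the order from high to low was ZT6, ZT2, ZT10, ZT22, ZT14 and ZT18. ZT6 was above ZT2 (adjusted p = 0.00254, 19.7% of genes called), ZT2 above ZT10 (0.0146, 20.2% called) and ZT22 above ZT14 (0.0348, 2.13% called), whereas ZT10 and ZT22 (0.0648) and ZT14 and ZT18 (0.585) did not pass. The drop of *Nr1d1* from ZT6 to ZT10 (2.44 log2 units, SE 0.223, adjusted p = 0.00498) fell in a contrast that called 0.324% of genes. For *Nr1d2* the order was ZT6, ZT10, ZT14, ZT2, ZT22 and ZT18. ZT10 was above ZT14 (adjusted p = 0.0426, 0.892% of genes called) and ZT2 above ZT22 (0.0418), while ZT6 and ZT10 (0.554), ZT14 and ZT2 (0.114) and ZT22 and ZT18 (0.948) did not pass. For *Rora* the order was ZT22, ZT18, ZT6, ZT14, ZT10 and ZT2, and no pair of neighbours in it passed. Among the other pairs of time points, ZT18 against ZT2 called 10.6% of genes, ZT14 against ZT2 13.3%, ZT14 against ZT6 8.12%, ZT18 against ZT6 3.05% and ZT22 against ZT6 7.06%, while ZT18 against ZT10 called 3.4% and ZT18 against ZT14 0.5%. In all, 12 of 15 pairs of time points passed for *Nr1d1*, 12 for *Nr1d2* and 5 for *Rora*.

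The 2 repressor genes were compared within each sample, where the scaling of the sample cancels. From ZT2 to ZT22, the ratio of *Nr1d1* to *Nr1d2* in series 1 was 1.77, 1.48, 0.262, 0.104, 0.271 and 0.783. In series 2 it was 1.28, 1.05, 0.281, 0.145, 0.239 and 0.758. *Nr1d1* was thus the higher of the 2 at ZT2 and ZT6 and the lower at the 4 other time points in both series. It made up 60.0 ± 5.50% of their summed level at ZT2 and 11.04 ± 2.29% at ZT14 (SD, n = 2). The log2 ratio, taken with a pseudocount of 1, followed a 24 hr wave (F24 = 0.961, peak at 2.37 hr, two-sided permutation p = 7e-05, adjusted p = 0.000105 over the 3 pairs of genes).

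Against *Rora*, both repressors also changed over the day within samples. The log2 ratio of *Nr1d1* to *Rora* ran from 2.77 to −2.28 with an F24 of 0.973 and a peak at 5.03 hr (permutation p = 1e-05, the smallest that 100000 permutations can give, adjusted p = 3e-05). The log2 ratio of *Nr1d2* to *Rora* ran from 2.30 to −0.77 with an F24 of 0.973 and a peak at 8.05 hr (permutation p = 0.00017, adjusted p = 0.00017). *Nr1d1* stood above *Rora* at ZT2, ZT6 and ZT10 and below it from ZT14 to ZT22 in both series. *Nr1d2* stood above *Rora* from ZT2 to ZT14 and below it at ZT18 and ZT22. Levels are per base of exon, counted over the exons of all isoforms, so the ratio of 2 genes depends on which isoforms the liver uses. The change of a ratio over the day does so only if isoform use changes. In the GENCODE annotation the exons cover 3124 bases for *Nr1d1*, 5009 for *Nr1d2* and 13099 for *Rora*. The lengths that the authors divided by may differ.

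**Figure D3:**
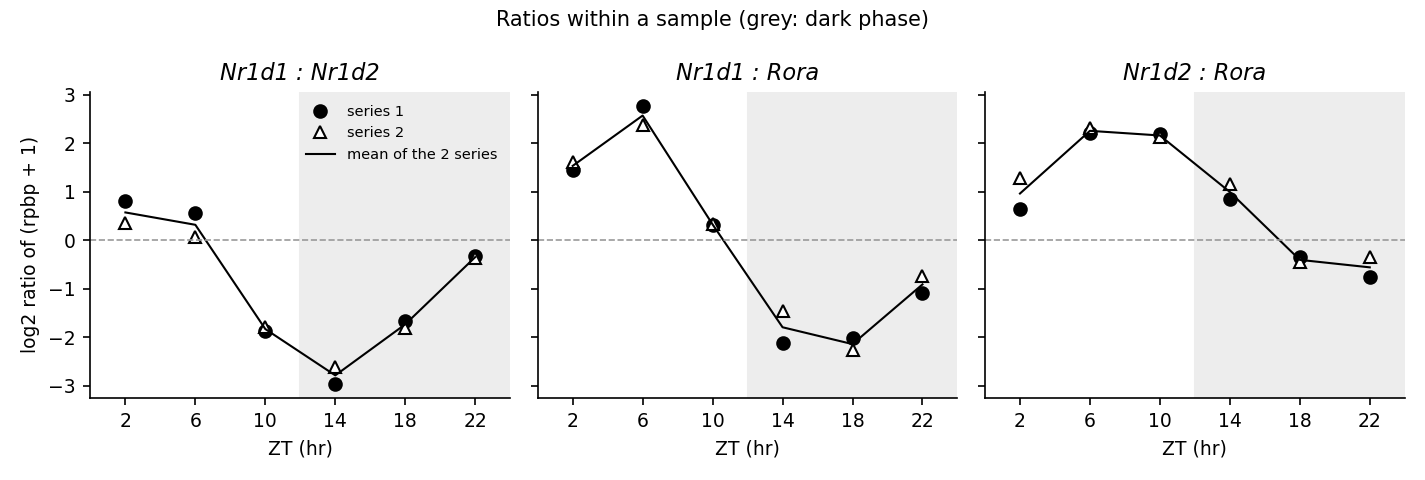
log2 ratio of (rpbp + 1) between 2 genes in the same sample against ZT in hr, with filled circles for series 1, open triangles for series 2, a line through the mean of the 2 samples and a dashed line where the genes are equal. The ratio of *Nr1d1* to *Nr1d2* was lowest at ZT14, and the ratios to *Rora* were highest at ZT6 and below 0 at ZT18 and ZT22.

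The level of *Rora* changed little, so the balance between repressor and *Rora* mRNA followed the repressors. In series 1 the summed repressors were 4.44, 11.9, 6.05, 2.02, 0.980 and 1.02 times *Rora* from ZT2 to ZT22. In series 2 they were 5.74, 10.5, 5.81, 2.61, 0.886 and 1.36 times *Rora*. Both series were highest at ZT6 and lowest at ZT18, the time point at which *Rora* mRNA exceeded the summed repressors in both. The mean ratio was 11.2 ± 0.981 at ZT6 and 0.933 ± 0.0662 at ZT18 (SD, n = 2). These ratios count *Rora* alone among the activators.

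The RORE is an AT-rich stretch followed by a nuclear receptor half-site and was searched on both strands, so that every match also holds the letters GGTCA or TGACC. None of *Nr1d1*, *Nr1d2* and *Rora* held a match within 2000 bases of its 5′ end, where 6.24% of genes held at least 1. *Npas2* held 3 (0.0179% of genes held 3 or more), *Arntl* held 2 (0.286% held 2 or more) and *Clock* held 1. *Nfil3* and *Cry1*, for which a RORE is also reported, held 0 in this window. The matches are shown with 9 bases on each side because they spell the element that the REV-ERB and ROR receptors share, 5′ to 3′ on the gene's strand, with the match in capitals. The 2 of *Arntl* lie upstream and in the first annotated exon (chr7:120349267-120349295 and chr7:120351042-120351070).
Arntl RORE at −1703: tagtccattTAATTAGGTCAgcatccagc
Arntl RORE at 72: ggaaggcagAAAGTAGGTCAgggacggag
Clock RORE at 763: taggccttgTGACCCACTTTattcctgtc
Npas2 RORE at −1827: taaagagaaTGACCTACTTTactggggag
Npas2 RORE at −896: ttggaaaaaTATGTAGGTCAgtggaacat
Npas2 RORE at −731: gccgatcctTGACCCATTTTcctgaccag

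The 5 clock genes *Arntl*, *Clock*, *Npas2*, *Nfil3* and *Cry1*, which have a reported RORE, were all called rhythmic, against 19.1% of all expressed genes. Their median F24 was 0.914, against 0.310 over all expressed genes. *Arntl*, the gene of BMAL1, was at 1.12 and 2.08 rpbp at ZT6 and at 25.8 and 27.7 rpbp at ZT22, the reverse of the repressors between these time points. At ZT2 *Arntl* was at 85.6% of its highest mean and the summed repressors were at 32.9% of theirs. The summed repressors were lowest at ZT18. *Arntl* had an F24 of 0.914 and a peak at 21.1 hr, close to *Clock*, the gene of its partner (0.871 and 21.2 hr). *Npas2*, the gene of a relative of CLK, peaked at 21.9 hr with an F24 of 0.827 and was listed at 0 in both samples of ZT14. Its mean over all samples was 2.77 rpbp and its highest value was 10.24 rpbp. *Npas2* passed the minimum of 8 rpbp only through the ZT22 sample of series 1, so its call rests largely on values under that minimum. *Nfil3*, the gene of a D-box repressor, peaked at 20.1 hr with an F24 of 0.925. *Cry1*, the gene of a repressor of CLK:BMAL1, peaked earlier, at 17.3 hr, with an F24 of 0.954. The time-point means of *Arntl*, *Clock*, *Nfil3* and *Cry1* were lowest at ZT6, where the summed repressors were highest. The means of *Npas2* were 0.2, 0.06 and 0 rpbp at ZT6, ZT10 and ZT14, too near 0 to place its lowest time point.

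**Figure D4:**
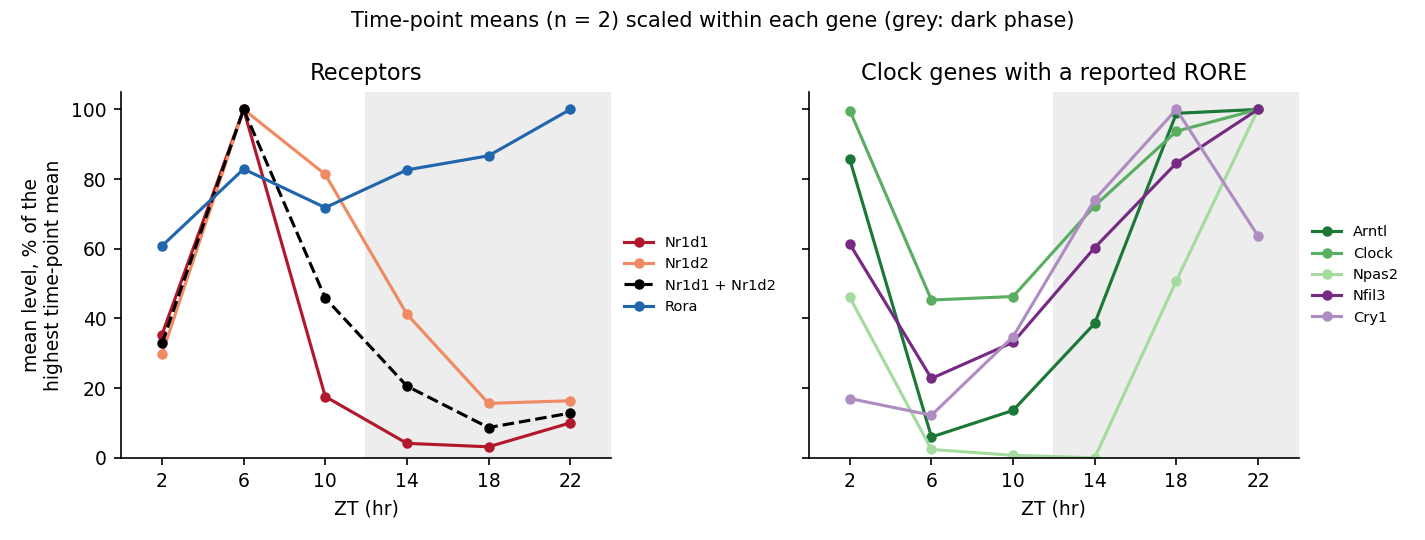
Mean of the 2 samples of each time point, as a percentage of the highest time-point mean of the same gene, against ZT in hr, for the receptors (left) and the 5 clock genes with a reported RORE (right). The summed repressors fell from 100% at ZT6 to 8.69% at ZT18, while *Arntl* was at 5.98% at ZT6 and 100% at ZT22 and *Cry1* was at 12.2% at ZT6 and 100% at ZT18.

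Likeness of the daily pattern was described by Pearson's r of log2(rpbp + 1) over the 12 samples, which share libraries and time of day. The genes most like *Nr1d1* included *Gnat1* (r = 0.926), *Tenc1* (0.912), *Nr3c2* (0.901), the mineralocorticoid receptor gene, and *Inoc1* (0.900). It was least like *Lonrf3* (−0.976), *Cry1* (−0.968), *Ahctf1* (−0.948), *Prkar2a* (−0.931) and *Hexim1* (−0.929). The genes most like *Nr1d2* included *Slc38a3* (0.976), the gene of a glutamine transporter, *Dgat* (0.947), *Dbp* (0.933) and *Bach1* (0.914). Its mirror images included *Chka* (−0.975), a choline kinase gene, *Ypel2* (−0.967), *Clpx* (−0.965) and *Dapk1* (−0.964). *Nr1d1* and *Nr1d2* were less like each other (0.651) than either was to these genes. Among the clock genes *Arntl* (−0.935), *Nfil3* (−0.947) and *Clock* (−0.928) were close to the mirror image of *Nr1d2*, and *Cry1* to that of *Nr1d1*. With the other repressor the r was weaker, at −0.588, −0.711 and −0.495 for *Arntl*, *Nfil3* and *Clock* with *Nr1d1*. For *Cry1* with *Nr1d2* it was −0.657.

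The genes most like *Rora* were *1300014I06Rik* (r = 0.910), *AK087905* (0.901), *Rassf5* (0.883), *H2-Q8* (0.873), a class I histocompatibility gene of a family with near-identical copies, and *Sigirr* (0.871). The least like were *Ap1gbp1* (−0.901), *Jagn1* (−0.884), *1700022C21Rik* (−0.881), *4921524J17Rik* (−0.871) and *Slfn5* (−0.871). *Rora* had r = −0.359 with *Nr1d1* and −0.331 with *Nr1d2*.

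*Nr1d1* shares its 3′ end with *Thra*, the gene of a thyroid hormone receptor on the opposite strand. In the GENCODE annotation the 2 genes have 263 exon bases in common (chr11:98629471-98629733). These make up 8.42% of the exon length of *Nr1d1* and 5.70% of that of *Thra*. The authors counted without regard to strand, so the reads in this stretch cannot be told apart. *Thra* in series 1 was at 17.7 rpbp at ZT2, 21.1 at ZT6, 9.88 at ZT10, 8.12 at ZT14, 10.3 at ZT18 and 13.6 at ZT22, and in series 2 at 14.5, 18.2, 9.16, 7.84, 11.4 and 12.1 rpbp. It was highest at ZT6, as *Nr1d1* was, and lowest at ZT14. *Thra* was rhythmic with an F24 of 0.738, a peak at 3.23 hr and an amplitude of 2.69 (permutation p = 0.003, adjusted p = 0.0515), and its ratio to *Nr1d1* ran from 0.159 ± 0.0136 at ZT6 to 2.74 ± 0.310 at ZT18. *Nr1d2* lies 165965 bases from *Thrb*, the other thyroid hormone receptor gene, and shares no exon with it. *Thrb* was not called rhythmic (F24 = 0.325, permutation p = 0.131).

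The receptors act through corepressor and coactivator proteins. Of the 6 corepressor genes, 1 (16.7%, against 19.1% of all expressed genes) was rhythmic, *Gps2* (F24 = 0.512, amplitude 1.76, permutation p = 0.032, adjusted p = 0.152), a subunit of the NCoR complex. The list had a median amplitude of 1.57, against 1.64 over all expressed genes. *Ncor1* and *Hdac3*, the genes of the corepressor and its deacetylase, were not called, with amplitudes of 1.31 and 1.71. *Ncor1* had an F24 of 0.657 and *Tbl1x*, the gene of another subunit, had an F24 of 0.502 (unadjusted permutation p = 0.0149 and 0.0405), and both had an amplitude under the limit of 1.5. Of the 6 expressed coactivator genes (7 of 8 in the table), none was rhythmic by these criteria, although *Ncoa1* (p = 0.0309) and *Ncoa2* (p = 0.0428) had an unadjusted permutation p below 0.05, as 26.6% of all expressed genes did. Both had amplitudes under the same limit. These 5 genes were named after their values were seen. Of 5 genes known to act on the turnover of REV-ERB protein, 4 were in the table, 2 were expressed and 0 were rhythmic, with permutation p-values of 0.115 and 0.431.

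Heme is the ligand of the REV-ERBs. Of 9 expressed genes of heme metabolism (8 of its synthesis, and *Hmox1*, whose enzyme breaks it down), 2 were rhythmic (22.2%, against 19.1% of all expressed genes). *Alas1*, the gene of the rate-limiting enzyme of heme synthesis, was at 108, 126, 867, 204, 194 and 66.9 rpbp from ZT2 to ZT22 in series 1. In series 2 it was at 216, 469, 815, 206, 41.1 and 134 rpbp. Both series were highest at ZT10, but the 2 samples of ZT6 and of ZT18 lay far apart. *Alas1* had an F24 of 0.570 and a peak at 9.47 hr (permutation p = 0.0053, adjusted p = 0.0652). *Alad*, the next enzyme of the pathway, had an F24 of 0.659 and a peak at 12.9 hr (permutation p = 0.01, adjusted p = 0.0874). *Fech*, the gene of the last enzyme of the synthesis, which was named after its values were seen, had the highest F24 of the list (0.831, permutation p = 0.0012, adjusted p = 0.0335), and its amplitude of 1.31 was below the limit. The list's median F24 was 0.426.

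Of 13 liver genes reported as REV-ERB or ROR targets, 12 were expressed and 3 (25%) were rhythmic, against 19.1% of all expressed genes. *Elovl3*, a fatty acid elongase gene, was at 165 and 112 rpbp at ZT6, 40.3 and 238 at ZT10 and 1440 and 1388 at ZT22. Its values at ZT6 and ZT10 were the lowest of the 6 time points, and it was rhythmic with an F24 of 0.917 and a peak at 22.3 hr (permutation p = 0.0003, adjusted p = 0.0194). *Insig2*, a regulator of sterol synthesis, peaked at 20.7 hr with an F24 of 0.571 (permutation p = 0.0078, adjusted p = 0.0777). *Cyp7a1*, the rate-limiting enzyme of bile acid synthesis, peaked at 11.4 hr with an F24 of 0.599 (permutation p = 0.0006, adjusted p = 0.025). The 3 rhythmic targets thus peaked at different times, and the 9 others did not pass.

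Of 10 clock genes known for E-boxes or D-boxes, 8 were in the table and 7 were rhythmic (87.5%, against 19.1% of all expressed genes), of which 5 also had an adjusted p below 0.05. The 4 with the highest F24 were *Per1* (0.889, peak at 11.3 hr), *Per2* (0.878, 12.2 hr), *Ciart* (0.849, 9.19 hr) and *Per3* (0.834, 9.69 hr). All 4 peaked after *Nr1d1* and *Nr1d2*. *Dbp*, the gene of a D-box activator, had its highest values at ZT6 (193 and 241 rpbp), as the repressors did. It peaked at 7.36 hr with an F24 of 0.628, between *Nr1d1* and *Nr1d2*. In the limma cosine fit on the log scale *Dbp* peaked at 8.98 hr (SE 0.51) and *Nr1d2* at 8.26 hr (SE 0.24). The order of these peaks thus depends on the scale.

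Among 49 nuclear receptor genes, 43 were in the table, 32 were expressed and 13 of these (40.6%) were rhythmic, against 19.1% of all expressed genes. *Nr2f6*, the gene of an orphan receptor, had an F24 of 0.922 with an amplitude of 1.59, and *Nr1d2* had an F24 of 0.885 with an amplitude of 7.69. By amplitude *Nr1d1* was the second, after *Pparg* (251), which was not rhythmic (F24 = 0.135, permutation p = 0.526), and before *Nr4a1* (29.0, F24 = 0.103, permutation p = 0.731). These amplitudes rest on lowest values under the minimum of 8 rpbp (3.80 for *Nr1d1*, 0.16 for *Pparg* and 0.32 for *Nr4a1*). The F24 of *Esrra*, the gene of another orphan receptor, was 0.825. Over all 10198 expressed genes, *Nr1d1* lay at percentile 98.6 for amplitude and 90.2 for F24, *Nr1d2* at 96.5 and 99.2, and *Rora* at 66.5 and 46.8.

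**Figure D5:**
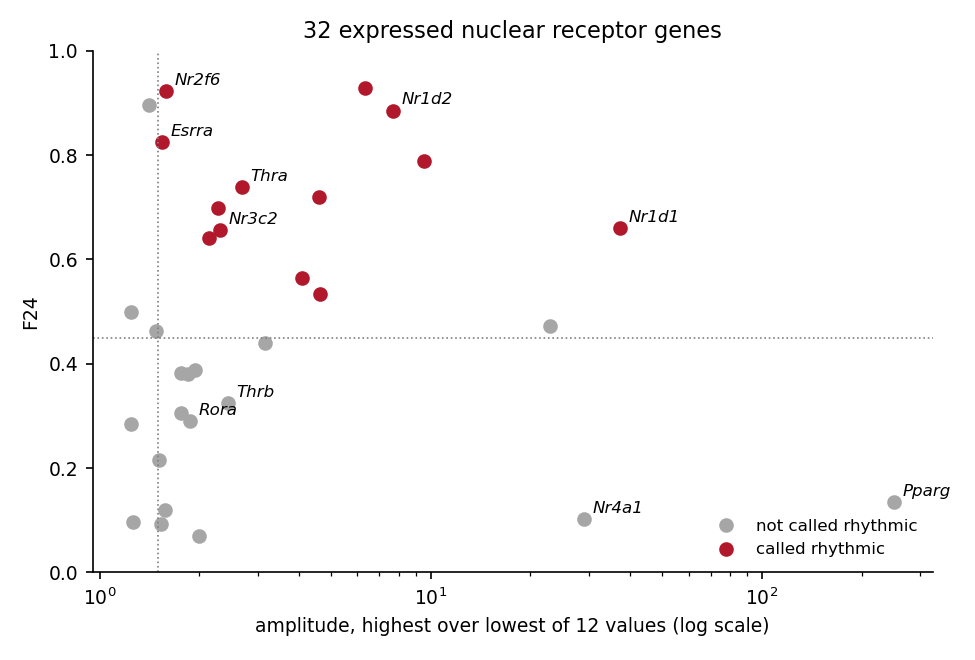
F24 against amplitude (highest over lowest of the 12 values, log scale) for the 32 expressed nuclear receptor genes, with genes called rhythmic in red, the others in grey and dotted lines at the limits of 0.45 and 1.5. *Nr1d1* and *Nr1d2* lie at the upper right among the rhythmic genes, *Rora* (F24 of 0.290, amplitude 1.88) lies among those not called, and *Pparg* and *Nr4a1* have large amplitudes with a low F24.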

How the data were processed

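Mouse liver poly(A) RNA-Seq was used (12 samples, 6 time points, n = 2). The deposited values are a signal, the exon coverage in reads per base pair, which the authors obtained after mapping to mm9 with TopHat (with CASAVA 1.8 also named in the submitters' processing notes), without regard to strand, and scaled to 10000000 uniquely mapped sequences. It is coverage and not a count, so depth per value is not known here and no counting error is given. The authors also deposited F24 (the share of variance at 24 hr), phase and p-value columns of their own comparison, which were not used. Columns headed ZT20 were read as ZT22, the time given in the labels.

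Values were multiplied by 4, and genes with a value above 8 rpbp were kept. F24 was tested with 10000 permutations (seed 1), ratios with 100000, and single series over all 720 orders. limma 3.58.1 (R 4.3.3, with trend) was fitted to log2(rpbp + 1), with a 24 hr cosine or a factor of 6 time points, and Benjamini-Hochberg adjustment over all genes. The labels do not state how many animals went into each sample, so p-values measure the spread between these samples, which may be technical. The members, lists and motifs were chosen with earlier results of these data known. Named genes were the members, the neighbour and RORE lists, up to 4 rhythmic genes of the highest F24 in each other list, the 3 nuclear receptor genes of largest amplitude, and 5 genes on each side of likeness. Alternatives were other minimums, size factors, log scales, permutations, replicate block, samples left out and amplitudes from means. Some genes, and 1 further form of the repressor to activator ratio, are not reported here. The fit without ZT2 was chosen after seeing the data. On simulated data the calls were tested first. Python 3.11.15, numpy 2.4.6, pandas 2.3.3 and matplotlib 3.10.9 were used.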

Additional observations from a re-analysis of the deposited data

How the results depend on the processing

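*Nr1d1* kept its rhythmic call and *Rora* stayed without one in all 10 alternatives each. *Nr1d2* lost its call only in the series taken alone, where F24 was 0.884 to 0.901 and 6 values were tested (smallest possible exact p = 0.0167). The cosine fits of the 2 repressors lost the adjusted p in single series (4.19 to 4.81 log2 units for *Nr1d1*, 2.70 to 2.96 for *Nr1d2*), where fewer samples were fitted, and kept it with any 1 sample left out and without ZT2. The difference of *Rora* among time points was less stable. With 1 sample left out it was 0.55 to 0.83 log2 units and 1 to 4 pairs of time points passed. It did not pass without a minimum (0.69 log2 units, adjusted p = 0.0563, 1 pair; adjusted p over all alternatives 0.0173 to 0.139) or without ZT2 (0.46 log2 units, chosen after seeing the data), and 3 pairs passed without the trend in limma; the cause was not tested. Single series called 284 and 360 rhythmic genes in place of 1948. With the adjusted p, the rhythmic genes fell to 0 of the corepressor genes, 0 of the heme genes, 0 of the genes next to the members 8 of the nuclear receptor genes, 5 of the E-box and D-box clock genes and 2 of the liver targets.

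The replicate numbers did not pair the samples (correlation of deviations between −0.153 and 0.206 over 15 pairs of time points). A replicate block left 3 pairs of time points in *Rora* in place of 5 and gave 13 in *Nr1d2* in place of 12. It changed no rhythmic call, cosine fit call, call of a difference among time points or ratio call of the 3 members. Single series have 1 sample per time point, so differences between time points could not be fitted in them. With 2 samples per time point, small differences such as those of *Rora* cannot be resolved well.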
